A study of Mus musculus with 10 samples.

Results

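The clustered protocadherins are 57 protein-coding genes on mouse chromosome 18, taken from the RefSeq annotation of GRCm38 by their symbols (Pcdha, Pcdhac, Pcdhb, Pcdhga, Pcdhgb and Pcdhgc followed by a number) out of 21631 protein-coding genes. They lie in 3 neighbouring arrays. The alpha cluster has 14 members at chr18:36930285-37188897, the beta cluster 22 members at chr18:37264998-37521419, and the gamma cluster 21 members at chr18:37661775-37841873. The transcribed pseudogene Pcdhgb8 and 3 fused gene models that run across the clusters (Gm37013, Gm38666 and Gm38667) do not have such symbols or biotypes and are no members.

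Clustered protocadherins are cell adhesion molecules with extracellular cadherin repeats. In neurons each cell switches on its own small combination of them, and the proteins bind like with like between membranes, which lets a neuron tell its own branches from those of its neighbours. Each alpha and gamma member has its own promoter and large variable exon, which encodes the extracellular part and is spliced to constant exons that all members of the cluster share. A beta member consists of a single large coding exon and has no constant region. The last members of the alpha and gamma clusters, the C-type members Pcdhac1, Pcdhac2, Pcdhgc3, Pcdhgc4 and Pcdhgc5, differ from the rest in their regulation. DNA methylation of the promoters and the binding of CTCF take part in the choice of which members are used. 5-carboxylcytosine (5caC) is made from 5-methylcytosine by the Tet enzymes in stepwise oxidation and is removed by thymine DNA glycosylase (TDG), so that it builds up where Tdg is lost.

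The study mapped 5caC to individual CGs in the genome of mouse embryonic stem cells, which were grown without feeders on gelatin in fetal bovine serum with LIF. Wild-type cells (wt) and cells labelled Tdg, whose kind of alteration the labels do not give, were grown in this serum medium or in serum-2i, to which the GSK3 inhibitor CHIR99021 (3 µM) and the MEK inhibitor PD0325901 (1 µM) had been added. The design text calls the states naive and primed and describes 2 technical replicates of each DNA, so no group had biological replicates. DNA of serum-grown cells without all Tet genes served as the negative control and was not analysed here. Because the samples are DNA, no marker RNA could be used to check the cell type.

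The deposited values are 1 mean coverage per CG position and group, with no value for each replicate. Differences between groups therefore have no replicate spread, no test was made, and the intervals below are exact 95% counting intervals only. Genome-wide, wild-type cells had 8685 listed positions in serum and 110753 in serum-2i, and Tdg cells 374488 and 689303. The lowest listed coverage was 3 for serum wt, 4 for serum-2i wt and 6 for both Tdg groups, so a position that is not listed may still have held reads. Members share near-identical stretches of coding sequence, and the placement of reads that match several members, not given in the sources used here, was not tested for its part in the values of single members.

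5caC positions were concentrated in the gamma cluster. The 3 clusters together held 291 distinct listed positions, 201 of them in gamma, 57 in alpha and 33 in beta. In serum Tdg cells 120 positions were listed in gamma, 41 in alpha and 17 in beta. In serum-2i Tdg cells the numbers were 124, 26 and 23. Wild-type cells had few: 15, 2 and 4 in serum-2i, and 2, 1 and 0 in serum, in the same order.

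The gamma cluster was the shortest of the 3, at 180.1 kb against 258.6 kb for alpha and 256.4 kb for beta, so its density stood further apart than its count. In serum Tdg it had 0.666 positions per kb, 4.68 times the density of the whole table (95% counting interval 3.88 to 5.60). In serum-2i Tdg it had 0.689 per kb, 2.63 times the whole table (2.19 to 3.13), and in serum-2i wt 1.98 times (1.11 to 3.26). The alpha cluster was at 1.11 times the whole table in serum Tdg (0.799 to 1.51) and at 0.384 times in serum-2i Tdg (0.251 to 0.562). The beta cluster lay below the whole table in both, at 0.466 times (0.271 to 0.746) and 0.342 times (0.217 to 0.514). Neighbouring CGs can be covered by the same read, so these intervals are too narrow. Set beside windows of the same length along the autosomes, gamma held more positions than 94.1% of 13336 windows in serum Tdg and more than 87.0% in serum-2i Tdg. Alpha exceeded 71.1% of 9284 windows in serum Tdg but 42.2% in serum-2i Tdg, and beta exceeded 57.2% and 39.9% of 9365 windows. The number of CGs in each window was not known here, and its part in these densities was not tested.

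**Figure D1:**
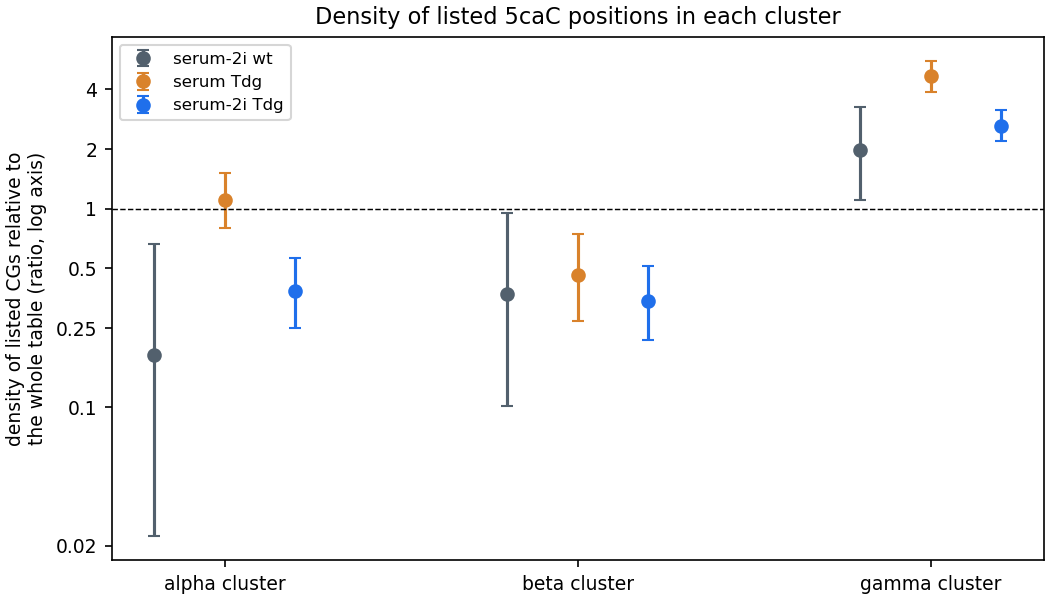
Density of listed CG positions in each cluster as a ratio to the density of the whole table (log axis), for 3 groups; points are the ratios and bars exact 95% counting intervals, and the dashed line marks equality. The gamma cluster lies above the line in all 3 groups shown (1.98, 4.68 and 2.63), while beta lies below it in all 3. Serum wt is not shown, because it had 3 positions in all.

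The space between the clusters was poorer in 5caC than gamma. The 76.1 kb between alpha and beta held 3 positions in serum Tdg and 2 in serum-2i Tdg, and the 140.4 kb between beta and gamma, where Slc25a2, a mitochondrial carrier, and Taf7, a subunit of the general transcription factor TFIID, lie, held 8 and 14. Of those, 3 and 4 lay in Slc25a2 and none in Taf7. Diaph1, a formin gene that follows the gamma cluster, had 37 and 41 positions over its span.

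**Figure D2:**
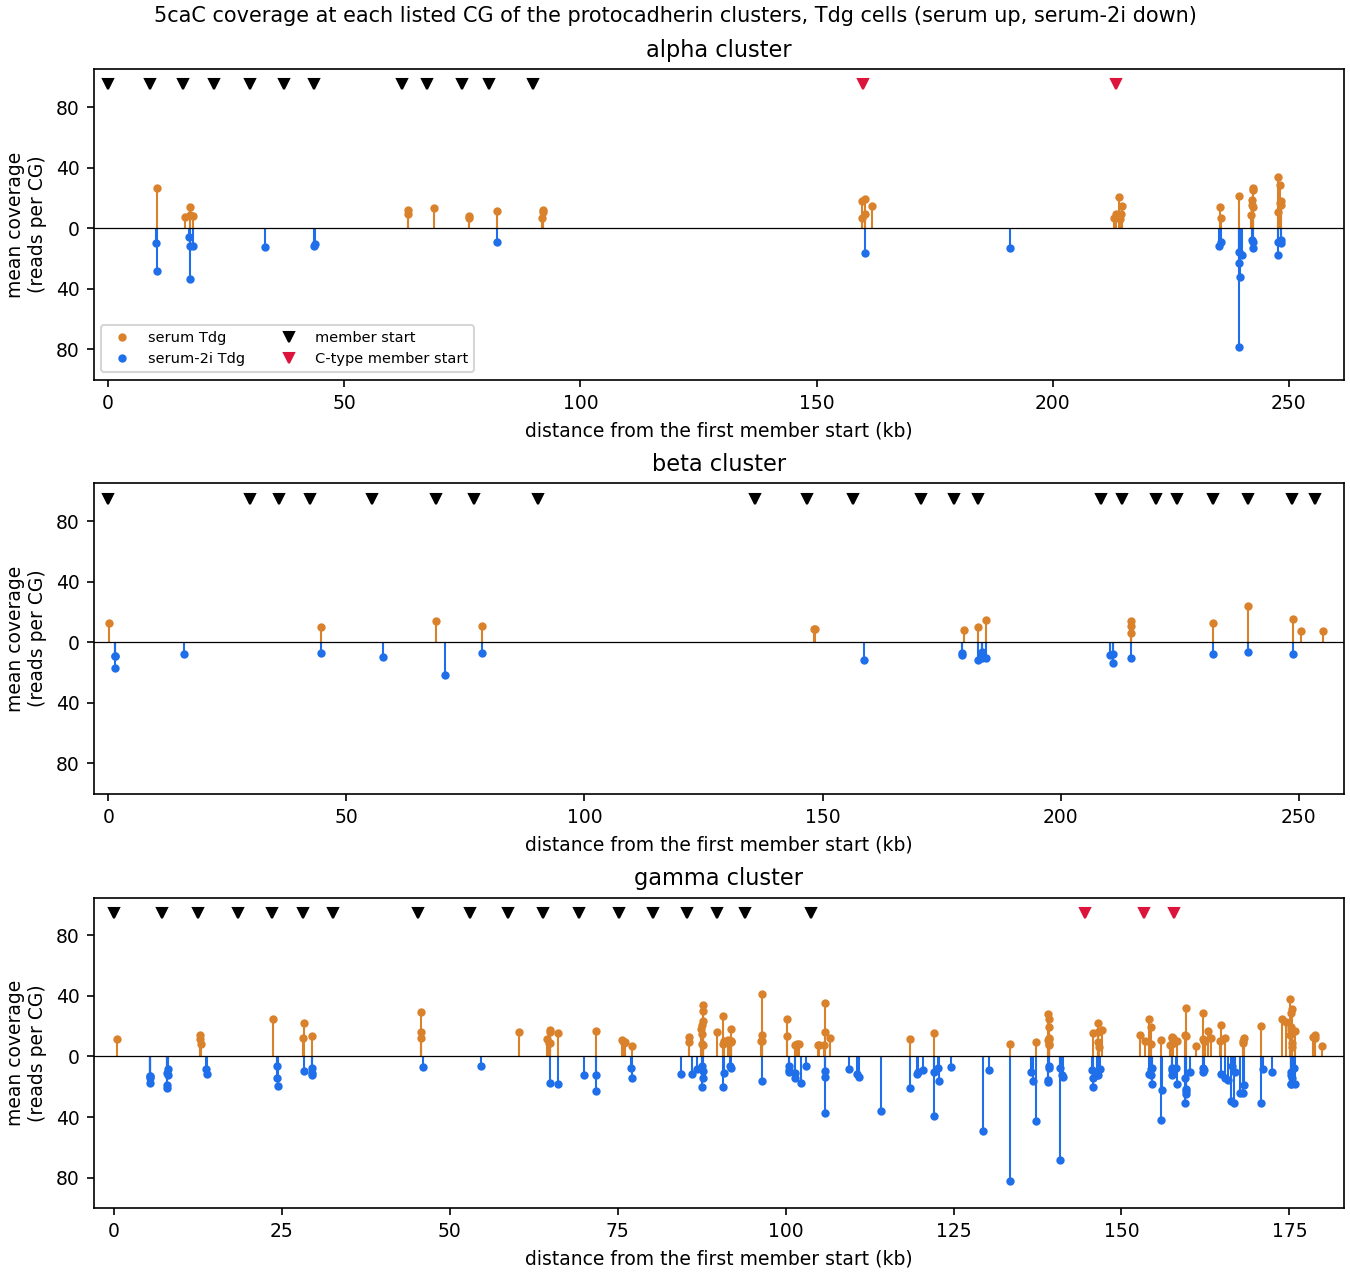
Mean coverage of every listed CG along the alpha, beta and gamma clusters in Tdg cells, serum upward and serum-2i downward, against the distance from the first member start in kb; triangles mark member starts, red for C-type members. Positions crowd at the right end of the alpha and gamma clusters, and the highest serum-2i values, 78.5 in alpha and 82.5 in gamma, lie outside the windows at member starts.

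Between media, the share of 5caC coverage that fell in the clusters was compared in Tdg cells as the log2 ratio of serum-2i over serum, each group's summed coverage being its total. Negative values mean a smaller share in serum-2i. A difference was called where it was at least 2-fold and its counting interval excluded 0. The alpha cluster was lower in serum-2i, at a log2 ratio of -1.11 (-1.24 to -0.98), with a summed coverage of 569.5 in serum and 435.5 in serum-2i. The beta cluster was at -0.52 (-0.71 to -0.32) and the gamma cluster at -0.61 (-0.68 to -0.55), both below the 2-fold mark. Their summed coverage was not lower in serum-2i: 196 in serum and 226 in serum-2i for beta, 1794 and 1932.5 for gamma. The totals of the groups were 7486660 in serum Tdg and 12348368 in serum-2i Tdg, so these negative ratios reflect the larger total. The calls depended on the minimum: with a minimum coverage of 10 in both groups the alpha ratio was -0.95 and no longer called. That of beta was then -1.03 and called. By number of positions alpha was at -1.54, and without the highest position of each group at -1.31, both called.

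The parts of the clusters did not move alike. A start window was defined for each member from 1 kb before to 2.5 kb after its start, which covers the promoter and most of the variable exon; the lower coordinate of each gene was taken as its start. In the alpha start windows 26 positions were listed in serum Tdg and 10 in serum-2i Tdg, with a log2 ratio of coverage share of -1.71 (-1.92 to -1.51). Gamma start windows held 70 and 60, at -1.12 (-1.21 to -1.02), and beta start windows 17 and 22, at -0.57 (-0.77 to -0.37). The shared constant region of gamma, 19.8 kb after the last start window, held 29 and 23 positions, at -1.11 (-1.25 to -0.96). That of alpha, 42.7 kb long, held 15 and 14, at -0.79 (-0.96 to -0.61). Among parts listed in both media, the only ones with a positive ratio lay between start windows in gamma. The 37.3 kb between the start windows of Pcdhga12 and Pcdhgc3 held 13 positions in serum and 27 in serum-2i, at 0.91 (0.74 to 1.09), under the 2-fold mark, and the short intervals between other gamma members held 8 and 14, at 0.34 (0.10 to 0.58). The interval between Pcdhac1 and Pcdhac2, and the short intervals of alpha and of beta, each held 0 positions in serum and 1 in serum-2i. They therefore had no ratio. The difference between parts had no test.

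**Figure D3:**
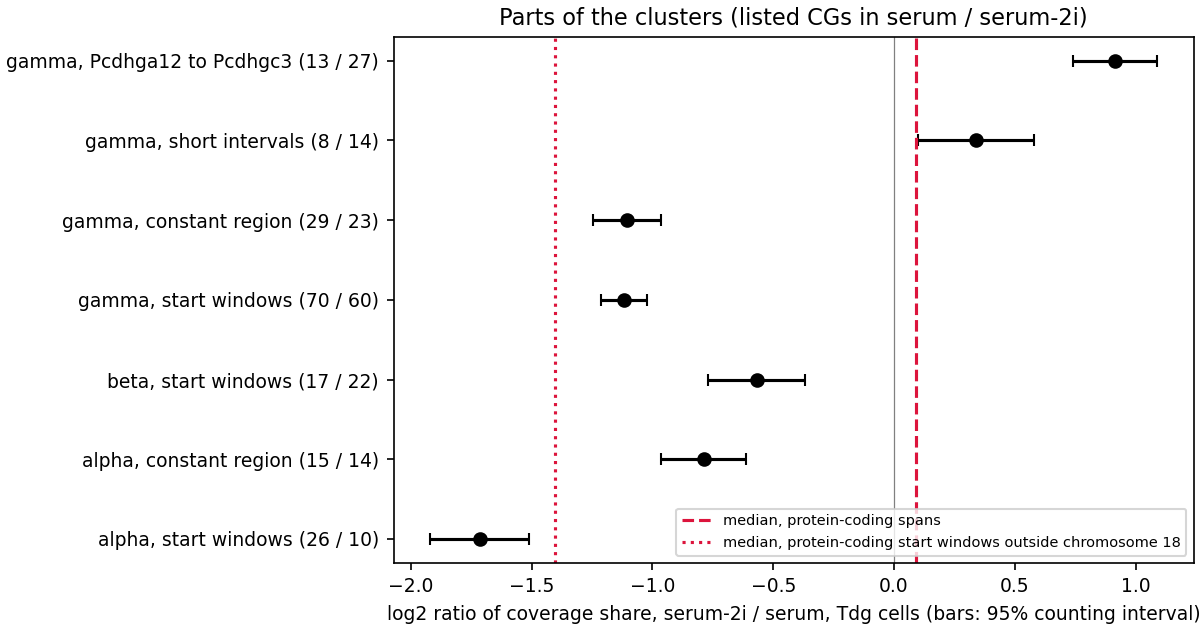
Log2 ratio of coverage share, serum-2i over serum in Tdg cells, for each part of the clusters listed in both groups; points are ratios, bars exact 95% counting intervals, and numbers in brackets the positions in serum and serum-2i. Start windows of alpha are lowest (-1.71) and the interval from Pcdhga12 to Pcdhgc3 highest (0.91); red lines mark the medians over protein-coding gene spans (0.09) and over start windows of genes on other chromosomes (-1.40).

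A lower share in serum-2i was common at gene starts throughout the genome, and the fraction of members' windows called lower was close to that elsewhere. Among 3414 start windows of protein-coding genes outside chromosome 18 that were listed in both media, 60.5% were called lower in serum-2i and 7.56% higher, with a median log2 ratio of -1.40. Of the 57 members' windows 27 were listed in both media. Of these, 16 were lower, or 59.3%, 0 were higher and 11 were between, with a median of -1.24. By cluster, 2 of 4 alpha, 6 of 10 beta and 8 of 13 gamma windows were lower. Of the 16 lower windows, 10 had at least 3 positions in one of the groups and 5 rested on a single position in each. Over whole gene spans 25.1% of 12575 protein-coding genes were lower and 28.5% higher, with a median of 0.09. Of the members 35 had enough coverage over their spans, and none of them was a beta member. All 14 alpha spans were lower by that measure and all 21 gamma spans between, but spans of a cluster overlap and end in the same constant region, so they repeat the same positions.

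The share of start windows with a listed position was higher among the members than elsewhere in Tdg cells and not in wild-type cells, without a test of the difference. In serum Tdg 36 of 57 windows (63.2%, 49.3 to 75.6) held one, and in serum-2i Tdg 34 (59.6%, 45.8 to 72.4), beside 43.5% and 43.7% of 10370 windows of other genes. Positions per window were 1.98 among members and 2.00 elsewhere in serum Tdg, and 1.61 and 1.33 in serum-2i Tdg. In wild-type cells 7 windows held a position in serum-2i (12.3%, beside 13.5% elsewhere) and 1 in serum (1.75%, beside 4.46%). Alpha went from 9 of 14 windows in serum Tdg (64.3%) to 5 in serum-2i Tdg (35.7%), the latter below the share elsewhere. In alpha 5 windows were listed in serum alone and 1 in serum-2i alone. Beta had 12 and 13 of 22 (54.5% and 59.1%) and gamma 15 and 16 of 21 (71.4% and 76.2%). Only the gamma intervals, 47.8 to 88.7 and 52.8 to 91.8, lay wholly above the share elsewhere. No position in any group was listed in 13 windows, those of Pcdha1, Pcdha4, Pcdha6, Pcdhb2, Pcdhb3, Pcdhb8, Pcdhb9, Pcdhb12, Pcdhb17, Pcdhb18, Pcdhgb1, Pcdhga5 and Pcdhgb6.

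**Figure D4:**
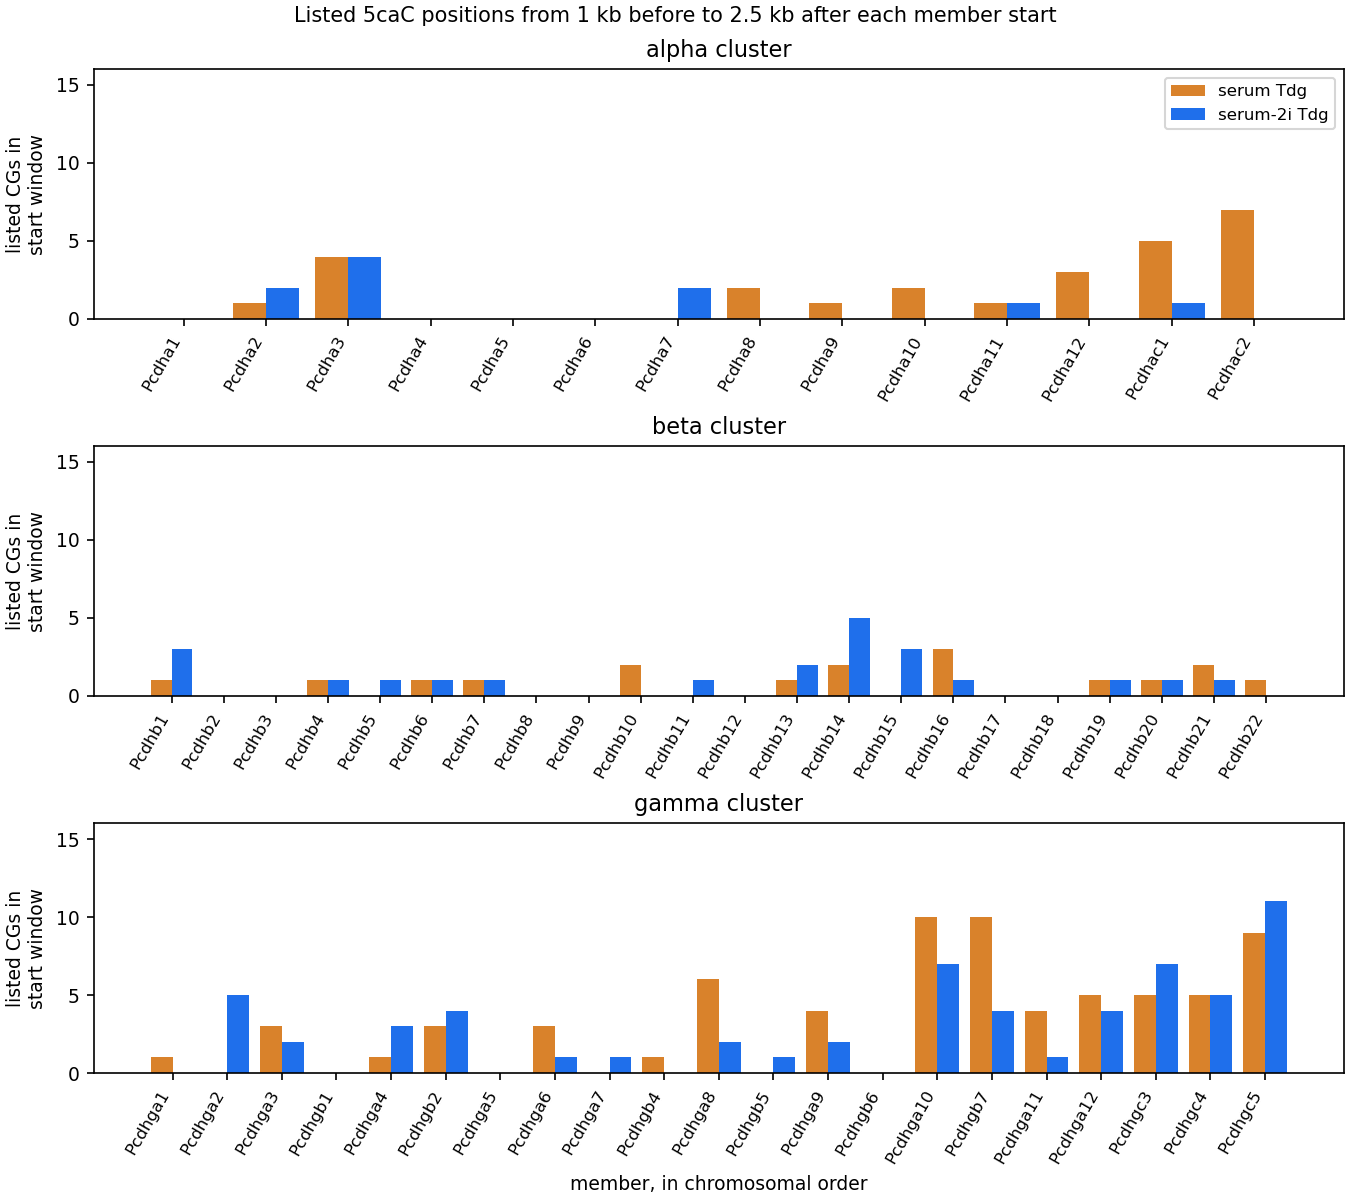
Number of listed CG positions in the start window of each of the 57 members in chromosomal order, serum Tdg and serum-2i Tdg. In gamma the last members from Pcdhga10 onward hold most positions, up to 11 in Pcdhgc5 in serum-2i; in alpha the bars of Pcdhac1 and Pcdhac2 are tall in serum (5 and 7) and small or missing in serum-2i (1 and 0).

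The C-type members had more positions per window than the mean of the other alpha and gamma members. Their 5 windows held 31 positions in serum Tdg and 24 in serum-2i Tdg, or 6.20 and 4.80 per window. The other 30 alpha and gamma windows had 2.17 and 1.53 per window. High counts were not limited to C-type members. In serum Tdg Pcdhga10, Pcdhgb7, Pcdhga11 and Pcdhga12 held 10, 10, 4 and 5, beside 5, 5 and 9 in the gamma C-type windows. In serum-2i Tdg they held 7, 4, 1 and 4, beside 7, 5 and 11. The alpha C-type windows held 5 and 7 in serum Tdg, but 1 and 0 in serum-2i Tdg. The alpha and gamma C-type members differed in how they stood in the 2 media. In the start window of Pcdhac2, the last alpha member, 7 positions with a summed coverage of 73.5 were listed in serum Tdg. None was listed there in serum-2i Tdg or wild-type cells. These 7 ran from -351 bases relative to the start, with coverage 6.5, to 1194 bases after it, with coverage 14.5, and the highest had 20.5. In Pcdhac1 5 positions summed to 68 in serum Tdg, and 1 position, with coverage 16.5, remained in serum-2i Tdg, at -2.76 (-3.36 to -2.21). That position, 452 bases after the start, had 19.5 in serum. In neither alpha C-type start window was a position listed in wild-type cells, though the alpha constant region held 2 in serum-2i wt.

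In gamma the 3 C-type members were listed in both media. Pcdhgc3 had 5 positions in serum Tdg, summing to 69.5, and 7 in serum-2i Tdg, summing to 87, at -0.40 (-0.73 to -0.07). Pcdhgc4 had 5 in each, summing to 77.5 and 58.5, at -1.13 (-1.49 to -0.77), and was called lower. Pcdhgc5, the last member of all, had 9 and 11 positions, summing to 123 and 178, at -0.19 (-0.43 to 0.05). The start window of Pcdhgc5 was also the C-type window listed in wild-type cells, with 2 positions in serum-2i. One of them, 480 bases after the start at chr18:37820026, had coverage 16 in serum-2i wt, 10.5 in serum Tdg and 18 in serum-2i Tdg, before any scaling for the groups' totals. The other, at chr18:37821301, had 4.5, 14 and 14.5 in the same order. Upstream of Pcdhgc5, 3 neighbouring CGs were listed in both Tdg groups, with coverage of 12.5, 8 and 13 in serum and 9, 7.5 and 12 in serum-2i.

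Among the other gamma members, which encode the A and B types of gamma protocadherin, Pcdhga10 and Pcdhgb7 had most positions in serum Tdg, with 10 each. Pcdhga10 had a summed coverage of 179 in serum and, over 7 positions, 82 in serum-2i, at -1.85 (-2.12 to -1.58). Of its serum positions 8 lay at chr18:37749151-37749506, 2135 to 2490 bases after its start, with coverage from 7.5 to 34, 1 of 3 places in the gamma cluster where 8 serum Tdg positions fell within 500 bases. In serum-2i 4 of these were listed, with 6.5 to 20. The stretch was picked by its number of serum positions, so the lower number in serum-2i is no comparison of the media. Pcdhgb7 had 130.5 in serum and 45 over 4 positions in serum-2i, at -2.26 (-2.62 to -1.91). The lowest ratio of the cluster was in Pcdhga6, -3.77 (-4.69 to -2.97), with 3 positions summing to 58 in serum and 1 with 7 in serum-2i. Next came Pcdhga11, at -2.93 (-3.52 to -2.37), where 4 positions summed to 76 in serum and 1 had 16.5 in serum-2i. That position, at chr18:37758192, was the highest of the cluster in serum Tdg, with 41.5.

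Pcdhga1, the first gamma member, had 1 position in serum Tdg, with 11.5, and none in serum-2i. Pcdhga2 ran the other way: it had none in serum Tdg and 5 in serum-2i Tdg, all between 765 and 919 bases after its start, with coverage from 8.5 to 20.5 and a sum of 71.5. A further 4 CGs between Pcdhga1 and Pcdhga2, at chr18:37667075-37667119, had 13 to 17.5 in serum-2i Tdg and were not listed in serum. Within each of these groups a single read can cover several of the CGs. The highest gamma ratios among windows listed in both were in Pcdhga4, -0.03 (-0.55 to 0.51), and Pcdhgc5. No gamma window was thus called higher in serum-2i.

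In alpha the members with most positions, other than the C-type ones, were Pcdha3 and Pcdha12. Pcdha3 had 4 positions in each Tdg group, summing to 38 in serum and 63 in serum-2i, with a ratio of 0.01 (-0.41 to 0.44), the highest of the cluster; 2 of its positions were shared. Its neighbour Pcdha2 had 1 position in serum, with 26.5, and 2 in serum-2i, summing to 38, at -0.20 (-0.73 to 0.33). Pcdha12 had 3 positions in serum, summing to 29.5, and none in serum-2i. Pcdha8, Pcdha9 and Pcdha10 were likewise listed in serum alone, with 2, 1 and 2 positions, and Pcdha7 in serum-2i alone, with 2. Pcdha11 had 1 in each, at 11.5 and 9, a ratio of -1.08 (-2.05 to -0.12). Pcdha5 was the only alpha window listed in wild-type cells, with 1 position of 3.5 in serum wt, and it was not listed in Tdg cells. The window of Pcdha1, the first member, held none. The 66.4 kb between the start windows of Pcdha12 and Pcdhac1 held no position in any group, and the 50 kb between Pcdhac1 and Pcdhac2 held 1, in serum-2i Tdg.

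In beta, most listed positions lay inside member genes. Of 17 positions in serum Tdg 16 lay inside a member's span, and of 23 in serum-2i Tdg 21 did, although the spans make up 75.6 of the 256.4 kb. Few members had more than a pair of positions. Pcdhb14 had most in serum-2i, 5 against 2 in serum, with sums of 48.5 and 25 and a ratio of 0.23 (-0.27 to 0.76). Pcdhb16 had most in serum, 3 against 1, with 30.5 and 10.5, at -2.26 (-3.05 to -1.52). Pcdhb1, the first member, was at 0.76 (0.09 to 1.48), with 1 position in serum, of 12.5, and 3 in serum-2i, summing to 35, but this left out the 1 kb before its start, which lies outside the cluster limits. There, 3 further positions were listed in serum, summing to 29, and 1 in serum-2i, of 8. With them the ratio of Pcdhb1 turned negative, at -0.67 (-1.12 to -0.22), the highest beta ratio was that of Pcdhb14, and the beta start windows together were at -0.72 (-0.91 to -0.52). The lowest ratio was in Pcdhb20, -2.61 (-3.62 to -1.70), at a single CG 18 bases after its start, chr18:37504282, with 24 in serum and 6.5 in serum-2i. Pcdhb21 followed at -2.34 (-3.29 to -1.47), and Pcdhb22, the last member, had 1 position of 7.5 in serum alone. Pcdhb15 had 3 positions in serum-2i, summing to 29.5, and none in serum.

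Within the start windows positions lay mostly after the start, but the windows reach 2.5 kb after it and only 1 kb before it. Exon limits were not used. With the 1 kb before Pcdhb1 counted, 4 of 20 beta positions in serum Tdg were upstream of a start, and 1 of 17 without it. Of the 70 gamma positions 8 were. Elsewhere in the genome the 1 kb before the start held 11.99% and 19.8% of the window's positions in its 2 bins of 500 bases in serum Tdg. In gamma those bins held 2.86% and 8.57%, and in alpha 0% and 19.2%. In beta, without the 1 kb before Pcdhb1, they held 0% and 5.88%. In the first 500 bases after gamma starts 15 positions were listed in serum and 3 in serum-2i. From 500 to 1500 bases the order was the reverse, 16 in serum and 27 in serum-2i. In beta the bins from 500 to 1500 bases held 0 in serum and 6 in serum-2i. In alpha the 5 positions upstream of a start were all listed in serum Tdg, all of them in Pcdhac1 and Pcdhac2.

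**Figure D5:**
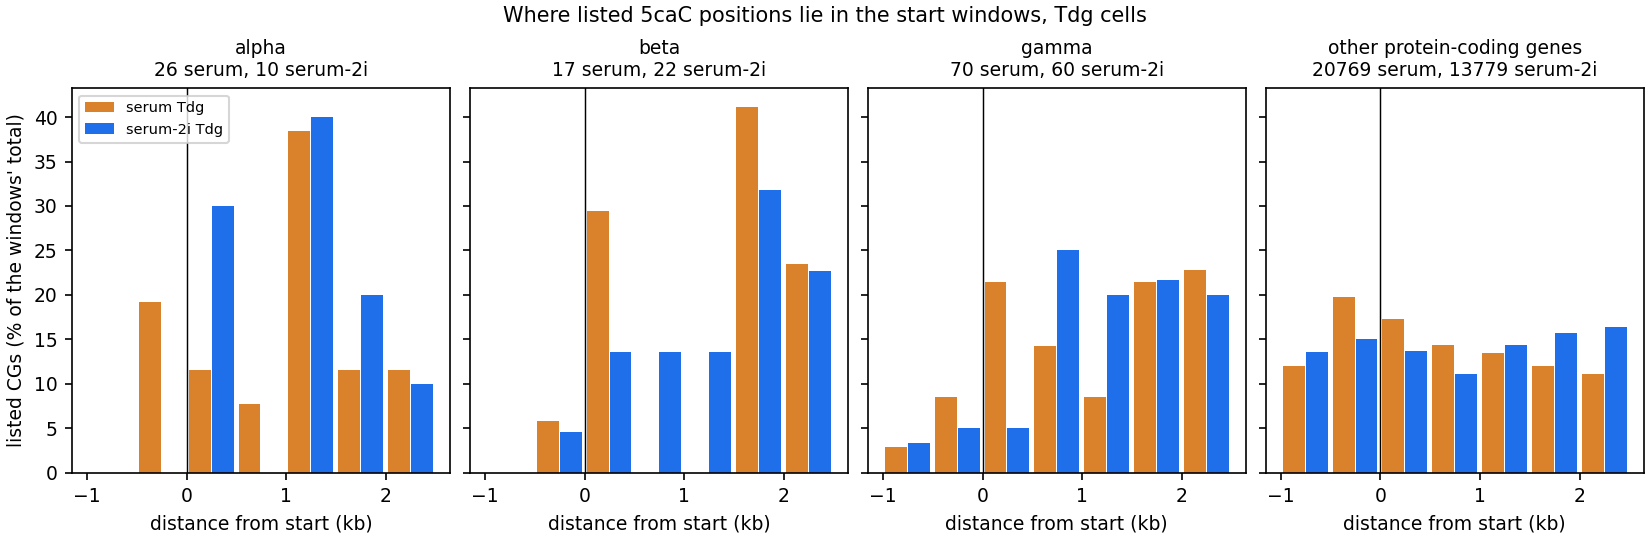
Share of listed positions in each 500-base bin of the start windows, for alpha, beta (without the 1 kb before Pcdhb1) and gamma members and for other protein-coding genes outside chromosome 18, in serum Tdg and serum-2i Tdg; 0 is the start and panel titles give the positions behind the bars. Among other genes the bins lie between 11.1% and 19.8%, while in gamma the first 500 bases hold 21.4% in serum and 5.00% in serum-2i.

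Some pairs of gamma members were listed at the same distance from their starts. Pcdhga8 and Pcdhga9 shared 2 such distances in serum Tdg: 460 bases, with coverage 11.5 and 11, and 894 bases, with 9 and 9.5. Pcdhga3 and Pcdhga10 were both listed at 425 bases, with 8.5 and 13, and Pcdhga10 and Pcdhga11 at 2334 bases, with 8 and 10. In serum-2i Tdg Pcdhga4 and Pcdhgb5 were both listed at 807 bases, with 6.5 and 12. None of these positions was listed in the other Tdg group. The members were not aligned, so an equal distance need not be the matching base. Whether such pairs fell together by accident, both copies were modified or reads fitted both was not tested.

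The long interval between Pcdhga12 and Pcdhgc3 held the highest coverage of the gamma cluster. Its 27 positions in serum-2i Tdg included 6 of at least 30, against 0 in serum Tdg; the 3 clusters together had 14 and 8. The only position of all clusters listed in all 4 groups was here, at chr18:37795151, 29571 bases after the start of Pcdhga12, with coverage 6 in serum wt, 5.5 in serum-2i wt, 8.5 in serum Tdg and 82.5 in serum-2i Tdg. The last value exceeded 99.4% of all positions of its group. A CG at chr18:37802630 had 15 in wild-type and 68.5 in Tdg cells, both in serum-2i, and one at chr18:37791231 had 49.5 in serum-2i Tdg alone. CGs at chr18:37780291 and chr18:37783898 were listed in 3 groups, at 10 and 6 in serum-2i wt, 11.5 and 15.5 in serum Tdg, and 21 and 39 in serum-2i Tdg. The serum Tdg positions of the interval were placed differently: 8 of the 13 lay in 230 bases at chr18:37800818-37801047, where serum-2i Tdg had 4 of its 27. That stretch, picked after its values were seen, summed to 122.5 in serum and 46 in serum-2i, and the rest of the interval to 57.5 over 5 positions and 513.5 over 23. The pseudogene Pcdhgb8, which lies between Pcdhga11 and Pcdhga12, had 5 positions in serum Tdg and 6 in serum-2i Tdg in its own start window, summing to 62 and 67.5.

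The constant regions, whose exons encode the cytoplasmic tail shared by all alpha or all gamma members, held separate stretches of 5caC. The stretches below were picked as the 500 bases with most positions in a cluster for 1 Tdg group. The numbers listed in both Tdg groups there are therefore no comparison of the media. In alpha, 6 positions at chr18:37172356-37172755 were listed in serum Tdg, with 8.5 to 26.5, and 3 of them in serum-2i, with 7.5 to 13. Upstream of it, 4 CGs at chr18:37169711-37169847 had 15.5 to 78.5 in serum-2i, and 1 of them was listed in serum. The highest alpha value was there, at chr18:37169818, with 78.5 in serum-2i Tdg and 21.5 in serum Tdg; the highest in serum was 33.5, at chr18:37177972, where serum-2i had 17.5. In the gamma constant region 6 CGs each were listed in serum and serum-2i at chr18:37836969-37837468, with up to 31.5 and 18.5. One of these, chr18:37837183, was also listed in serum wt, with 9, but not in serum-2i wt. The overlapping stretch chr18:37836809-37837215 held 8 positions in serum Tdg. The highest of them, 38 at chr18:37836864, was not listed in serum-2i Tdg.

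In the clusters the share of positions listed in both media was nearly the same from either side. That share lay below the whole table counted from serum and above it counted from serum-2i. The whole-table lists were of unequal length, with 374488 and 689303 positions. Of 178 serum Tdg positions 70 were also listed in serum-2i Tdg, or 39.3% (32.1 to 46.9), beside 52.8% over the whole table. As a share of the serum-2i Tdg positions it was 40.5%, beside 28.7%. By cluster it was 13 of 41 in alpha, 8 of 17 in beta and 49 of 120 in gamma. In the alpha start windows it was 4 of 26, and in the alpha constant region 9 of 15. Where both were listed, coverage was higher in serum-2i at 28 positions, lower at 41 and equal at 1, without scaling for the groups' totals; genome-wide 100621 were higher, 93745 lower and 3371 equal.

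Tdg cells had many more listed positions than wild-type cells, but the share of all coverage that fell in the clusters did not follow. In serum-2i the gamma cluster had a summed coverage of 142 in wild-type and 1932.5 in Tdg cells, a log2 ratio of its share, Tdg over wt, of -0.03 (-0.20 to 0.15). Its constant region was lower in Tdg, at -1.14 (-1.42 to -0.84), with 5 wild-type positions, and its start windows were at 0.49 (0.17 to 0.83), also with 5. The alpha cluster was higher in Tdg, at 1.27 (0.71 to 1.89), a call that rests on 2 wild-type positions, and beta was at -0.86 (-1.25 to -0.44) with 4. The alpha call was lost, at 0.30, when each cluster was widened by 10 kb on both sides. Over protein-coding spans 11.1% of 10952 genes were higher and 21.7% lower, with a median of -0.22. In serum the 3 clusters together were at -0.33 (-0.79 to 0.18) with 3 wild-type positions. Between media in wild-type cells they were at -1.05 (-1.54 to -0.52), a call that rests on the same 3 positions and was lost without the highest position of each group, at -0.24. Of the 21 wild-type positions in serum-2i 12 were listed in Tdg cells of that medium, with a median coverage of 9 in wild-type and 21.3 in Tdg cells, and 11 of the 12 were higher in Tdg. Genome-wide, 49.1% of the serum-2i wt positions were listed in serum-2i Tdg, and 47944 of those 54406 were higher in Tdg. The median over protein-coding spans was -1.50 for serum-2i over serum in wild-type cells and -1.28 for Tdg over wt in serum. These medians cover only the 2919 and 3182 genes listed in both groups. A gene kept in this way has a position in the sparse serum wt list, which raises its share there. The medians are thus no neutral baseline for the wild-type contrasts.

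Other genes of the same biology were described over their whole spans, from lists made with earlier results of these data known. Of 12 non-clustered protocadherins, which are single genes elsewhere in the genome, 7 had enough coverage in Tdg cells. Between media 2 were higher in serum-2i and 3 lower, with a median of -0.47 beside 0.09 for all genes. The higher ones were Pcdh9, at 4.77 (3.99 to 5.69), which rests on 1 serum position of 6.5, and Pcdh15, a part of the tip link of hair cells, at 4.22 (3.73 to 4.75), which rests on 2 serum positions summing to 17.5. The lower ones were Pcdh8, at -4.18, Pcdh1, at -2.42, and Pcdh19, at -1.06. Among 19 regulators of the clusters 17 had enough coverage, and 8 were higher and 1 lower, with a median of 0.86, beside 28.5% higher and 25.1% lower over all protein-coding spans. The higher ones included Setdb1, a histone H3K9 methyltransferase, at 2.73, Lrif1, at 2.72, Smchd1, a chromatin protein that silences the clusters, at 2.70, the cohesin subunit Rad21, at 2.62, Ctcf, at 1.46, the cohesin loader Nipbl, at 1.45, and the cohesin subunit Smc3, at 1.39. Setdb1 and Lrif1 rest on 1 serum position each, with coverage 15.5 and 8. Rad21 rests on 2 summing to 29, Smc3 on 3 summing to 40, Smchd1 on 4 summing to 38 and Ctcf on 5 summing to 40. The lower one was Ehmt2, another H3K9 methyltransferase, at -1.90. The DNA methyltransferases Dnmt3a, at -0.94, and Dnmt3b, at -0.16, were between. Of 11 cytoplasmic partners of the proteins 5 were higher and 0 lower, with a median of 0.62: the kinases Fyn, at 1.19, and Ptk2, at 1.35, and the WAVE complex subunits Cyfip1, at 1.35, Cyfip2, at 1.46, and Nckap1, at 1.26. These values follow where 5caC lay in the genes and carry no information on their expression.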

How the data were processed

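The samples were 10 genomic DNA libraries in 5 groups. Glycosylation protected 5-hydroxymethylcytosine and methylation the unmodified CGs, after which an engineered SssI methyltransferase exchanged the carboxyl group for an azide tag, and the tagged DNA was enriched and sequenced on an Ion Proton, per the labels' protocols. The authors deposited a coverage signal for each CG position and group. All values were multiples of 0.5, as a mean of 2 whole counts would be. Positions refer to mm10 (per the submitters' processing notes), with aligner and caller not given in the sources used here.

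All 15148 listed positions inside RefSeq promoter windows lay 1 base before the C of a CG, so the table counts from 0, and coordinates are given counting from 1. Each cluster position was assigned once, to the nearest start window, an interval or the constant region. Shares of summed coverage were compared by a log2 ratio with an exact conditional Clopper-Pearson 95% interval on doubled coverage, and single shares by a Clopper-Pearson interval. Reads without molecular identifiers are not independent, so intervals cover counting error only. Gene spans, lists included, needed a summed coverage of 20 as a mean over the groups; start windows, of members and others alike, needed only a position in both groups. Calls were at least 2-fold.

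Named were the C-type members, the first and last of each cluster, the 2 with most positions in each Tdg group, those with the highest and lowest ratios, members without a position, and the top positions; others were named after their values were seen. The members and lists were chosen with earlier results of these data known. Other minimums, scalings, limits and measures were tried. No sequence of the clusters is given here, and a gene counted among the regulators is not reported here by itself. Python 3.11.15, numpy 2.4.6, pandas 2.3.3 and scipy 1.17.1 were used. The ratio and its interval were tested on simulated coverage sums of gene spans, drawn independently and without a listing minimum. The simulation held no reads shared by neighbouring CGs, so it does not cover calls that rest on few positions near the minimum.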

Additional observations from a re-analysis of the deposited data

How the results depend on the processing

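Over 31 results 106 alternative values were computed: 77 kept direction, call or size, 9 lost a call, 4 gained one, 12 changed sign and 4 shares moved. The 77 include values that could not change. A common minimum of 6 leaves values of Tdg cells alone as they were, because 6 was the lowest coverage listed there. For media in Tdg cells no ratio of a cluster changed sign. With a minimum coverage of 10, alpha was at -0.95 (call lost) and beta at -1.03 (gained); with start windows alone gamma was at -1.12 (gained). With the 1 kb before it counted, Pcdhb1 was at -0.67 instead of 0.76. For media in wild-type cells, all clusters, the call was lost by number of positions (-0.87), widened limits (-0.79) and start windows alone (-0.044). It was also lost without the highest positions (-0.24) and by 100-base bins (-0.85). Median ratio scaling gave 0.45, where the median over the genes listed in both groups was -1.50. For Tdg against wt in serum-2i, alpha lost its call by number of positions (1.06), widened limits (0.30) and bins (1.18), beta was called at -1.61 with a minimum of 10, and gamma, close to 0, was at 0.41 by number, 0.49 in start windows, 0.12 without the highest positions, 0.30 by bins and 0.20 by median ratio scaling. For Tdg against wt in serum, where wild-type had 3 positions, the ratio was 0.46 by number, 1.33 in start windows (called), 0.61 without the highest positions, 0.56 by bins, 0.95 by median ratio scaling and -1.51 with a minimum of 6 (called). A 2 kb window put 70.6% and 69.6% of beta and 38.3% and 34.7% of gamma positions (serum and serum-2i Tdg) after a start, instead of 94.1%, 91.3%, 51.7% and 44.4% with 2.5 kb. The causes were not tested. The 100-base bins and the 1 kb before Pcdhb1 were chosen after seeing the data. No paired analysis was possible because the table has 1 value per group and none per replicate; leaving out a replicate was not run for the same reason. The wild-type comparisons rest on 3 and 21 listed positions in the clusters.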
